A study of Mus musculus with 2 samples.

Results

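The genes described here are 10 members of the TGF-beta and activin pathway, chosen by name from the 32285 genes of the deposited matrices: the ligand genes Tgfb1, Tgfb2, Tgfb3 and Inhba, the receptor genes Tgfbr1, Tgfbr2, Tgfbr3 and Acvr2a, the inhibitor Smad7, and Ltbp2, a latent TGF-beta binding protein gene. All 10 were found in both libraries, and each was followed across cell classes set by marker genes that include none of them. The study made droplet single-cell RNA libraries of the soft tissue behind the mouse tibia, along the Achilles tendon. The injured library came from limbs 7 days after a tenotomy, the cutting of the tendon, combined with a burn. The uninjured library came from the contralateral tendon, and since it is labelled burn/tenotomy as well, it is not tissue of untreated mice. The mice of both libraries carried the alleles Hoxa11 wt/CreERT2 and R26 wt/LSL-rtTA together with the transgene TetO-Vegfd, so Vegfd, a lymphatic growth factor, can be overexpressed in cells that have expressed the limb positional gene Hoxa11 and in their descendants. The design text gives male and female mice of 8 to 12 weeks and 5 per group. The sources used here do not say whether a library pooled animals, nor whether or when tamoxifen or doxycycline was given. The control genotype was not analysed here, and every comparison below sets injured against uninjured tissue of transgene carriers.

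TGF-beta is secreted as a latent complex, bound to its own propeptide and often to a latent TGF-beta binding protein that anchors it in the matrix, and it acts once it is released. The freed dimer binds TGFBR2, which recruits and activates TGFBR1, while TGFBR3 (betaglycan) presents the ligand, TGFB2 above all. Activin A, a dimer of the Inhba product, binds ACVR2A or ACVR2B instead. Both ligand groups signal through SMAD2 and SMAD3, and SMAD7, itself a target gene of the pathway, limits the signal. In tendon and in bone that forms outside the skeleton after injury, the pathway is known for matrix production, scarring and recruitment of progenitor cells.

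Each group had 1 library and no replicate. Differences between the libraries were therefore not tested, and the exact 95% intervals below include the error of counting molecules and nothing of the variation between mice. The injured library held 10691 barcodes and 253050820 UMIs (unique molecular identifiers, counted molecules), and the uninjured library held 6850 barcodes and 101685524 UMIs. Filters kept 9164 injured cells (median 17494 UMIs) and 4702 uninjured cells (median 15771.5 UMIs). The filter on mitochondrial UMIs took out 7.49% of the barcodes of the injured library and 26.4% of those of the uninjured library. The libraries shared 19 barcode sequences, 8 of them among kept cells. Clustering gave 33 clusters, of which 28 were named from fixed markers, and 891 cells stayed unnamed. The tissue label is Achilles tendon, and tenocyte markers were present in the mesenchymal class of both libraries, Tnmd at 245 CPM in injured and 729 CPM in uninjured cells (CPM, UMIs of a gene per 1e+06 UMIs of the class). The kept cells also included skin, muscle, nerve, vessel and immune cells. Keratinocytes numbered 310 in the injured and 0 in the uninjured library, satellite cells or myoblasts 16 and 272, neutrophils 996 and 4.

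Levels below are CPM in this sense, for each cell class and library, and they are compared between libraries or classes for the same gene, never between genes. A gene was called past 2-fold where the log2 ratio of injured over uninjured, with 5 CPM added to both levels, was beyond 1 in size and the gene reached 10 CPM in at least 1 library. Annotated genes on the opposite strand cover the 3′ ends of Tgfb3 (chr12:86056745-86079041 on GRCm38, minus strand; Ttll5), Acvr2a (chr2:48814109-48903269, plus strand; Orc4) and Inhba (chr13:16011851-16031621, plus strand; Gm48444). Ltbp2 (chr12:84783212-84876532, minus strand) has no such partner at its 3′ end. The sources used here do not state whether the counting used strand, so reads of these pairs may not be separable.

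Promoters of 7 members were in the RefSeq table for GRCm38.p6, and those of 4 are shown, the ligand and latency genes among them, whose levels by cell class are described below. Each runs from 250 bases before to 50 bases after the annotated start. Capitals mark CAGAC or its reverse complement GTCTG, the SMAD box to which SMAD3 and SMAD4 are known to bind. The windows are chr12:84876442-84876741 on the minus strand for Ltbp2, chr1:186705940-186706239 on the minus strand for Tgfb2, chr13:16011601-16011900 on the plus strand for Inhba and chr7:25686752-25687051 on the plus strand for Tgfb1.
Ltbp2: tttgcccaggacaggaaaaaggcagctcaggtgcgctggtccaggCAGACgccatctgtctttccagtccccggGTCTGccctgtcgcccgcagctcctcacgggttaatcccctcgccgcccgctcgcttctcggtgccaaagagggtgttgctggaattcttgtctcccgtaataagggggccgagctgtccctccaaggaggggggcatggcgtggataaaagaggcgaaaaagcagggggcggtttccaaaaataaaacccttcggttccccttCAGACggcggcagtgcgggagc
Tgfb2: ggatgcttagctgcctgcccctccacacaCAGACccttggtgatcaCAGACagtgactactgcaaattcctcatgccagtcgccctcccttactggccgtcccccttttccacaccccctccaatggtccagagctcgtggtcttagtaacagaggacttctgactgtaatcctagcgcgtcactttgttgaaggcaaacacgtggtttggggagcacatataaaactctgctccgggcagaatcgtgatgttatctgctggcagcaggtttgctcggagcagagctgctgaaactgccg
Inhba: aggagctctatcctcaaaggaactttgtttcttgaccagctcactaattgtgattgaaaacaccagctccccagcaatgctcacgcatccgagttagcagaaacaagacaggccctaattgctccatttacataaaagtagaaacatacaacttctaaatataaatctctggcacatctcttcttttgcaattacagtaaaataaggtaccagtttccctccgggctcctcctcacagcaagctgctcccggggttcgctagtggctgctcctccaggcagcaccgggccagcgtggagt
Tgfb1: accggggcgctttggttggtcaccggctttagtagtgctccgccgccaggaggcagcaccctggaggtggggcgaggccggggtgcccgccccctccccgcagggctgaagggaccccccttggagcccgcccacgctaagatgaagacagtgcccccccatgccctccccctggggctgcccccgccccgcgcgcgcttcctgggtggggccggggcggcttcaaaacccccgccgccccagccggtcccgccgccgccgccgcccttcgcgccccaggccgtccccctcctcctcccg
The Ltbp2 window held 3 of these boxes and the Tgfb2 window 2, while the Inhba and Tgfb1 windows held 0. Of 32851 promoters of the same length in the table, 49.6% held at least 1, so a match is common and describes the letters only. An AP-1 site, TGANTCA on either strand, was in 0 of the members' windows and in 7.81% of all promoters.

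**Figure D1:**
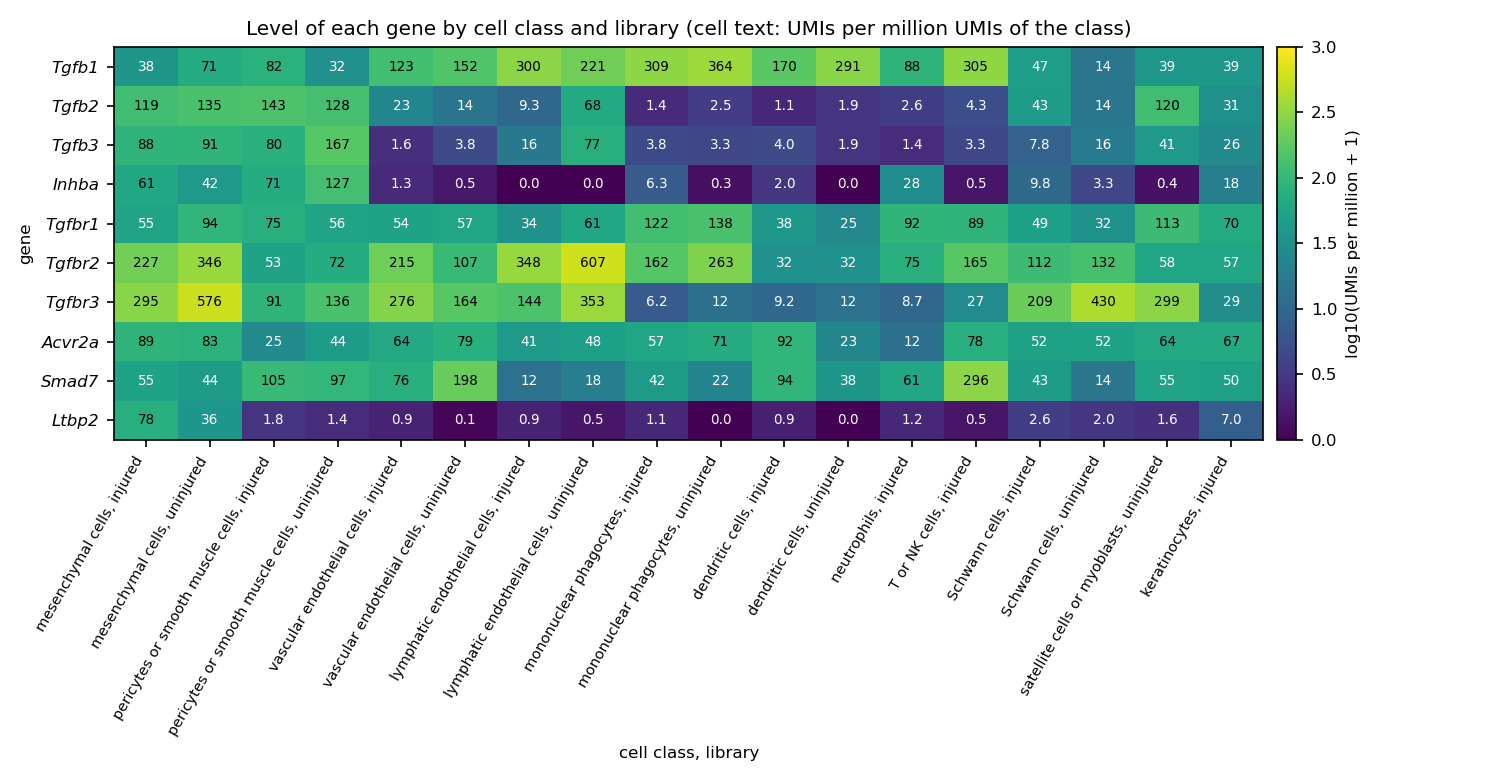
Level of each gene (rows) in each cell class with 50 or more cells in a library (columns, the injured library left of the uninjured where both had 50 cells). Colour shows log10(CPM + 1) and the printed number the CPM. Tgfb1 is highest in phagocytes (309 injured, 364 uninjured) and Ltbp2 is above 10 CPM in mesenchymal cells only (77.9 injured, 36.5 uninjured).

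Tgfb1 was led by mononuclear phagocytes, and Tgfb2 and Tgfb3 by mesenchymal cells and by pericytes or smooth muscle cells. Tgfb1, the isoform best known from platelets and leukocytes, was highest in mononuclear phagocytes, at 309 CPM in injured and 364 CPM in uninjured cells. In the injured library T or NK cells (305 CPM) and lymphatic endothelial cells (300.4 CPM) followed with overlapping intervals. Neutrophils there had 88.5 CPM, below vascular endothelial cells (123 CPM). In the uninjured library dendritic cells (291 CPM) came next, with intervals that did not overlap. Tgfb2 and Tgfb3, isoforms known from mesenchymal tissue, were low in phagocytes. Tgfb2 had 1.36 CPM in injured and 2.55 CPM in uninjured phagocytes, and Tgfb3 had 3.77 and 3.34 CPM there. Tgfb2 reached 119 CPM in injured and 135 CPM in uninjured mesenchymal cells, 143 and 128 CPM in pericytes or smooth muscle cells, and 119.9 CPM in uninjured satellite cells or myoblasts. Tgfb3 had 88.5 CPM in injured and 91.2 CPM in uninjured mesenchymal cells, and 79.5 and 167 CPM in pericytes or smooth muscle cells, which were above mesenchymal cells in the uninjured library without overlap. Over the 18 class and library pairs with 50 or more cells, Tgfb2 and Tgfb3 correlated at r = 0.89 and Tgfb1 and Tgfb2 at r = -0.62, where pairs share a library and its depth.

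Inhba, which encodes the activin A subunit, was highest in pericytes or smooth muscle cells of both libraries (70.7 CPM injured, 127 CPM uninjured) and second in mesenchymal cells (61.1 and 41.5 CPM). In the injured library neutrophils came next at 27.8 CPM (23.4 to 32.8, 140 UMIs). Ltbp2, a matrix protein of elastic fibres that lacks the covalent TGF-beta binding of its relatives, was the most restricted member. Mesenchymal cells had 77.9 CPM in the injured and 36.5 CPM in the uninjured library, and the next class had 6.99 CPM (injured keratinocytes) and 1.98 CPM (uninjured Schwann cells). After each cell was thinned to 2000 UMIs, which left out 77 injured and 38 uninjured mesenchymal cells, 11.6% of injured mesenchymal cells (10.3 to 13.0) and 4.46% of uninjured ones (3.38 to 5.77) had an Ltbp2 UMI. Without thinning these shares were 53.1% and 17.7%, at median depths of 44881 and 19818.5 UMIs. In phagocytes, where Ltbp2 lay near 0, the thinned share was 0.274% of injured cells and 0 of 393 uninjured cells, which allows up to 0.763%, at median depths of 13661 and 14955 UMIs, with 218 injured and 8 uninjured cells left out.

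Receptor genes were spread more widely. Tgfbr2, the ligand-binding receptor, was highest in lymphatic endothelial cells, at 348 CPM in the injured and 607 CPM in the uninjured library, followed by mesenchymal cells at 227 and 346 CPM. Tgfbr3 was highest in mesenchymal cells (295 and 576 CPM) and low in phagocytes (6.17 and 11.8 CPM). Tgfbr1, the signalling kinase, was at 25 CPM or more in all 18 class and library pairs and highest in phagocytes, at 122 CPM injured and 138 CPM uninjured. Acvr2a led by little: in the injured library dendritic (92.3 CPM), mesenchymal (89.2) and T or NK cells (77.8) each overlapped the class above, and in the uninjured library mesenchymal (82.7), vascular (79.1) and phagocyte (70.7) levels did so as well. Smad7 was led by T or NK cells in the injured library (296 CPM) and by vascular endothelial cells in the uninjured library (198 CPM), with pericytes or smooth muscle cells second in both (105 and 96.6 CPM).

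**Figure D2:**
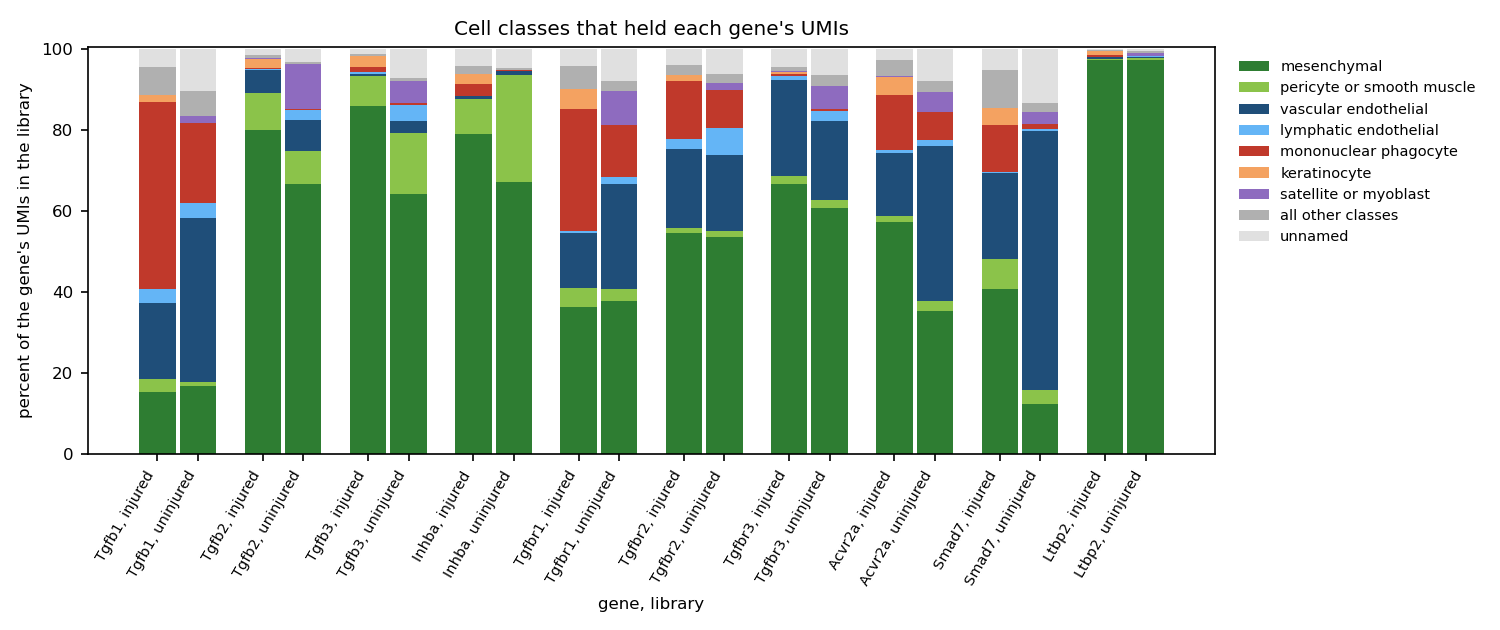
Percent of each gene's UMIs (vertical axis) held by each cell class, 1 bar per gene and library with the injured library left. Mesenchymal cells held 97.4% of injured and 97.2% of uninjured Ltbp2 UMIs, and the largest share of Tgfb1 was in phagocytes in the injured library (46.2%) and in vascular endothelial cells in the uninjured library (40.5%).

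The mix of cells differed between libraries, and with it the cell class that held most UMIs of a gene. Phagocytes held 46.2% of Tgfb1 UMIs in the injured and 19.7% in the uninjured library, and vascular endothelial cells 18.7% and 40.5%. Smad7 UMIs were 21.3% vascular in the injured and 63.9% vascular in the uninjured library, against 40.7% and 12.4% mesenchymal. Mesenchymal cells held most of Inhba (79.0% injured, 67.3% uninjured), Tgfb3 (85.9% and 64.2%) and Tgfb2 (79.9% and 66.7%). Pericytes or smooth muscle cells held 8.74% of injured and 26.3% of uninjured Inhba. Summed over all kept cells, 1 of the 10 members was past 2-fold, against 11.6% of all 10197 genes compared (5.02% higher, 6.56% lower). This was Ltbp2, at 36.6 CPM in the injured library (35.8 to 37.3) and 11.6 CPM in the uninjured library (10.9 to 12.3), a 3.15-fold higher level (2.95 to 3.36). Its log2 ratio was 1.32, and 0.75 in Xist-only cells, those with an Xist UMI and none of 4 Y-linked genes. In all, 944 injured and 169 uninjured cells had both kinds of UMI, and free RNA was not removed, so these sets may hold cells of the other sex. Inhba stood at 35.4 and 19.1 CPM, 1.85-fold higher (1.76 to 1.96), and Smad7 at 61.5 and 108 CPM, a ratio of 0.567 (0.553 to 0.582). The median log2 ratio was -0.05 over the 10 members and -0.03 over all genes compared. Of the 49 other genes of the pathway list, 42 were compared over all cells, 7 were past 2-fold higher and 4 lower. Among the 7 higher were Postn, Thbs1, Fbn2, Mmp14, Tgfbi and Col1a1. The lower genes were Ltbp4, Ccn2 and the TGF-beta receptor genes Eng (117 CPM injured, 283 CPM uninjured) and Acvrl1 (30.3 and 70.7 CPM). Within vascular endothelial cells neither of these receptor genes was past 2-fold, and that class held 17.2% of injured and 34.9% of uninjured UMIs. The part of the cell mix was not tested.

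Mesenchymal cells were those of clusters best scored by the fibroblast, tenocyte or chondrocyte marker list. Within them 0 of the 10 members were past 2-fold, against 11.2% of the 9453 genes compared (4.29% higher, 6.87% lower). Ltbp2 lay at the threshold, with 77.9 CPM injured and 36.5 CPM uninjured, a ratio of 2.13 (2.00 to 2.28) and a log2 ratio of 0.999. The median log2 ratio was -0.11 over the 10 members and -0.05 over all genes. Over the whole class, all 3 TGF-beta receptor genes were lower in injured cells: Tgfbr3 at 295 against 576 CPM (ratio 0.512, 0.502 to 0.522), Tgfbr2 at 227 against 346 CPM (0.657, 0.641 to 0.672) and Tgfbr1 at 54.9 against 93.5 CPM (0.588, 0.561 to 0.616). Tgfb1 was lower as well, at 38.1 against 71.1 CPM (0.535, 0.507 to 0.565). The thinned share of cells with a Tgfbr3 UMI was 38.6% (36.6 to 40.6) in injured and 58.4% (55.6 to 61.2) in uninjured cells, against 1.29% of injured and 2.04% of uninjured phagocytes. Inhba was 1.47-fold higher (1.38 to 1.57), and its thinned shares of 6.45% (5.48 to 7.54) and 5.52% (4.31 to 6.95) had overlapping intervals. The other 4 ratios lay nearer to 1: Tgfb2 at 0.885, Tgfb3 at 0.970, Acvr2a at 1.08 and Smad7 at 1.26. The median log2 ratio of genes with at least 50 UMIs in each library was -0.13 in this class, so ratios relative to other genes are higher by that amount.

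**Figure D3:**
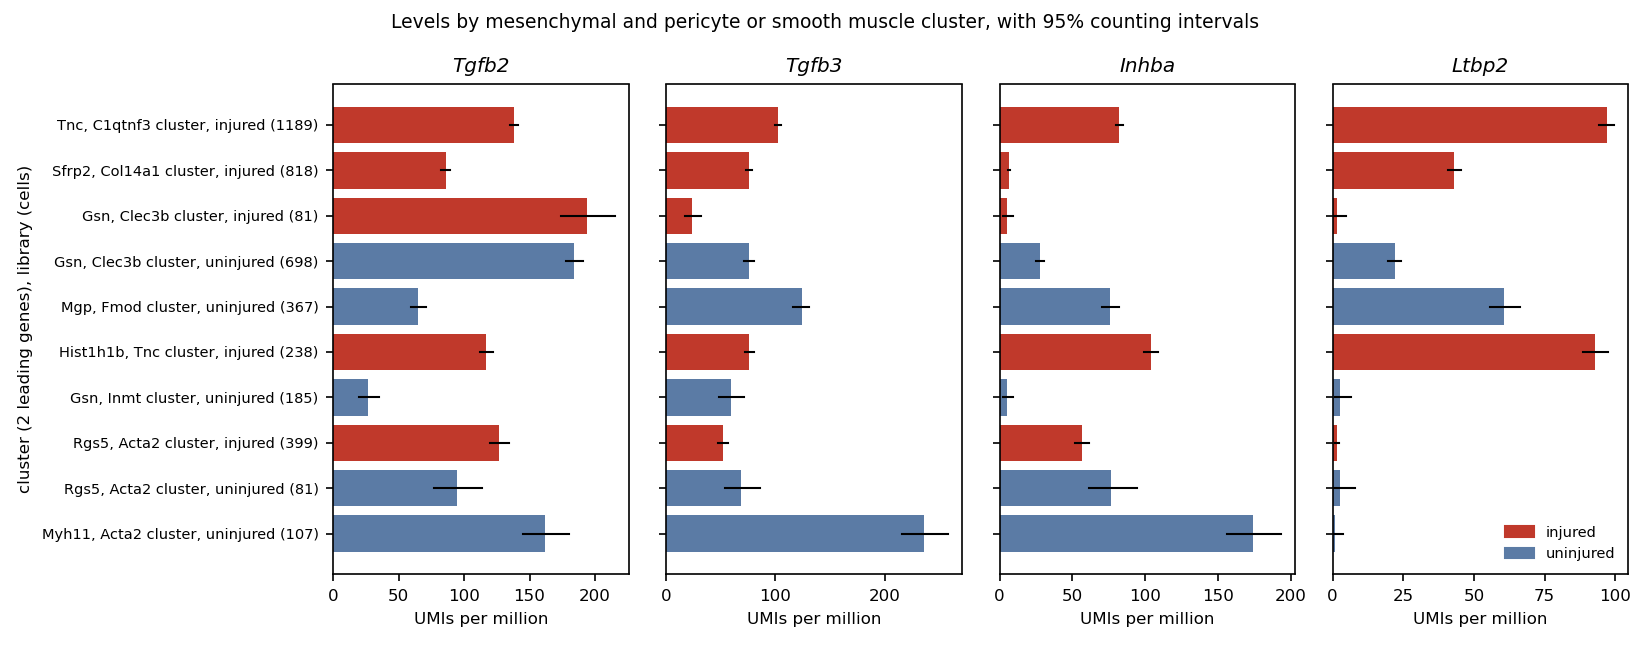
CPM of 4 genes (horizontal axes) in each mesenchymal and each pericyte or smooth muscle cluster with 50 or more cells in a library. Bars are coloured by library, lines are 95% counting intervals, and cell numbers stand in brackets. Inhba and Ltbp2 are high in the Tnc clusters of the injured library (82.1 and 97.0 in the larger) and in the tenocyte cluster of the uninjured library (76.1 and 60.8). They are lower in the Gsn clusters, of which the Gsn and Clec3b cluster of the uninjured library is highest (27.8 and 21.9).

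Different clusters made up the class in the 2 libraries, and Inhba and Ltbp2 were high in some and low in others within each library. In the injured library the largest cluster (1189 cells) was led by Tnc, C1qtnf3 and Cthrc1, genes known from injury-site fibroblasts, and had Inhba at 82.1 CPM and Ltbp2 at 97.0 CPM. The related dividing cluster of 238 cells, led by Hist1h1b and Tnc, had 104 and 93.0 CPM. Of the marker lists, both clusters scored highest on the chondrocyte list (4 markers detected). These scores were low, 0.998 and 0.358, against 1.795 to 4.659 for the other mesenchymal clusters on their best lists. A cluster of 818 injured cells led by Sfrp2 and Col14a1 had Inhba at 6.45 CPM, Ltbp2 at 43.1 CPM, Tgfbr2 at 355 CPM and Tgfbr3 at 489 CPM, against 161 and 211 CPM for the receptors in the Tnc and C1qtnf3 cluster. In the uninjured library the tenocyte cluster of 367 cells, led by Mgp and Fmod, had Inhba at 76.1 CPM, Ltbp2 at 60.8 CPM, Tgfb1 at 133 CPM, Tgfb3 at 124 CPM and Tgfbr1 at 142 CPM. In 185 uninjured cells led by Gsn and Inmt, Inhba was at 4.97 CPM and Ltbp2 at 2.76 CPM. Clusters were built from these cells' other genes, with the members and the pathway list left out.

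A cluster led by Gsn and Clec3b, which also carried the fibroblast marker Pi16, was the only mesenchymal cluster with 50 or more cells in each library (81 injured, 698 uninjured). In it 3 members were past 2-fold and all were lower in injured cells. The share of all genes past 2-fold is given for whole classes only, so this count has no background to be read against. Tgfb3 had 23.4 CPM injured and 75.7 CPM uninjured (log2 -1.51). Inhba had 4.89 and 27.8 CPM (log2 -1.73, from 9 and 453 UMIs). Ltbp2 had 1.63 CPM (3 UMIs) and 21.9 CPM (357 UMIs), a ratio of 0.0745 (0.0153 to 0.219) and a log2 ratio of -2.02, opposite in sign to that of the whole class. Tgfbr2 was higher there, at 665 against 391 CPM. The ratios of the other TGF-beta receptor genes and of Tgfb1 were nearer to 1 than in the whole class. They were 0.879 (0.825 to 0.936) for Tgfbr3, 0.906 (0.75 to 1.09) for Tgfbr1 and 0.852 (0.648 to 1.10) for Tgfb1. The activin receptor gene Acvr2a went the other way, at 89.2 CPM injured and 111 CPM uninjured in this cluster. Its log2 ratio was -0.31 there and 0.10 in the whole class. The part of the cluster mix in the whole-class ratios was not tested.

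Markers of other cells moved in the class as well, and their part in these ratios was not tested. The summed level of the 8 macrophage markers, all above 0 in both libraries, was 198 CPM in injured and 35.4 CPM in uninjured mesenchymal cells, and that of the 7 neutrophil markers was 104 and 1.42 CPM, with Ly6g at 0 in a library. The 8 pericyte or smooth muscle markers summed to 149 and 75.3 CPM. Other sums were lower in injured mesenchymal cells. The 6 satellite or myoblast markers summed to 5.70 CPM injured and 174 CPM uninjured, the 6 myofibre markers to 8.95 and 60.5 CPM. The 5 erythroid markers summed to 94.8 and 590.0 CPM. Ltbp2 in mesenchymal cells had 56.0 CPM injured and 39.6 CPM uninjured in Xist-only cells (log2 0.45). In Y-only cells, those with UMIs of Y-linked genes and none of Xist, it had 99.1 and 36.4 CPM (log2 1.33). The difference between these ratios was not tested.

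Of the 49 pathway genes, 41 were compared in mesenchymal cells, 4 were past 2-fold higher and 3 lower, with a median log2 ratio of 0.03 against -0.05 over all genes compared. The 4 higher genes were Acta2 (1066 CPM injured, 140.5 CPM uninjured, log2 2.88) and Tagln (705 and 196 CPM, log2 1.82), contractile genes of myofibroblasts, Postn (5026 and 2505 CPM, log2 1.00), a matricellular protein, and Lrrc32 (26.5 and 10.5 CPM, log2 1.02), which tethers latent TGF-beta to the cell surface. The 3 lower genes were Ltbp4 (83.2 and 553 CPM, log2 -2.66), which anchors latent TGFB1, Ccn2 (299 and 1486 CPM, log2 -2.29), a matricellular protein, and Fst (62.9 and 139.5 CPM, log2 -1.09), a secreted activin antagonist. Acta2, Tagln, Postn and Ccn2 all belong to the list of genes known to be induced by TGF-beta in fibroblasts. In that list of 8, all 8 were compared, 3 were past 2-fold higher and 1 lower. Acta2 and Tagln are also smooth muscle genes, and the summed pericyte or smooth muscle markers were 149 CPM in injured and 75.3 CPM in uninjured mesenchymal cells. The part of such cells in the Acta2 and Tagln ratios was not tested.

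**Figure D4:**
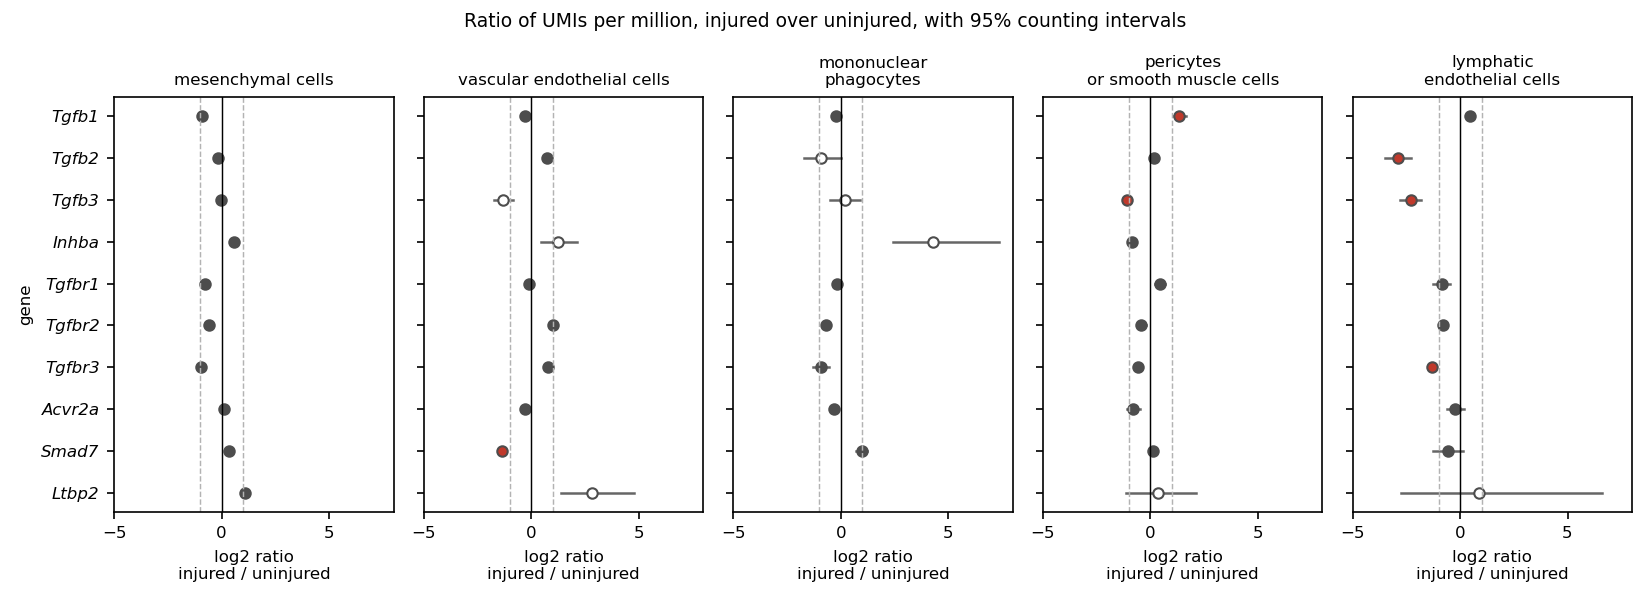
Log2 ratio of CPM, injured over uninjured, without an added constant, for each gene in 5 cell classes. Lines are 95% counting intervals and dashed lines mark 2-fold. Red points were called past 2-fold with 5 CPM added, white points were under 10 CPM in both libraries, and genes with 0 UMIs in a library have no point. Smad7 lies at a ratio of 0.384 in vascular endothelial cells, and Tgfb2 and Tgfb3 lie at 0.136 and 0.202 in lymphatic endothelial cells.

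In vascular endothelial cells 1 of the 7 members at 10 CPM or more was past 2-fold, against 9.14% of the 9215 genes compared (4.71% higher, 4.43% lower). This was Smad7, at 76.1 CPM in injured cells (73.4 to 78.8) and 198 CPM in uninjured cells (193 to 203), a ratio of 0.384 (0.367 to 0.401) and a log2 ratio of -1.33. The thinned share of cells with a Smad7 UMI was 14.3% (12.3 to 16.5) of injured and 28.6% (26.4 to 30.9) of uninjured cells, and 64.5% and 74.9% without thinning, at median depths of 25228 and 14409.5 UMIs. In lymphatic endothelial cells, where Smad7 was low, the thinned shares were 3.70% and 2.50% at median depths of 31875 and 17271 UMIs. Thinning left out 27 injured and 43 uninjured vascular cells. 2 of the 4 receptor genes were higher: Tgfbr2 had 215 CPM injured and 107 CPM uninjured, a ratio of 2.00 (1.93 to 2.09) whose log2 value with 5 CPM added, 0.97, was short of the threshold, and Tgfbr3 had 276 and 164 CPM (1.69, 1.63 to 1.74). Tgfb1 (123 and 152 CPM), Tgfbr1 (53.8 and 57.0 CPM) and Acvr2a (63.6 and 79.1 CPM) had ratios of 0.810, 0.943 and 0.804, lower in injured cells. Tgfb2 was low in both, at 22.8 and 13.8 CPM.

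**Figure D5:**
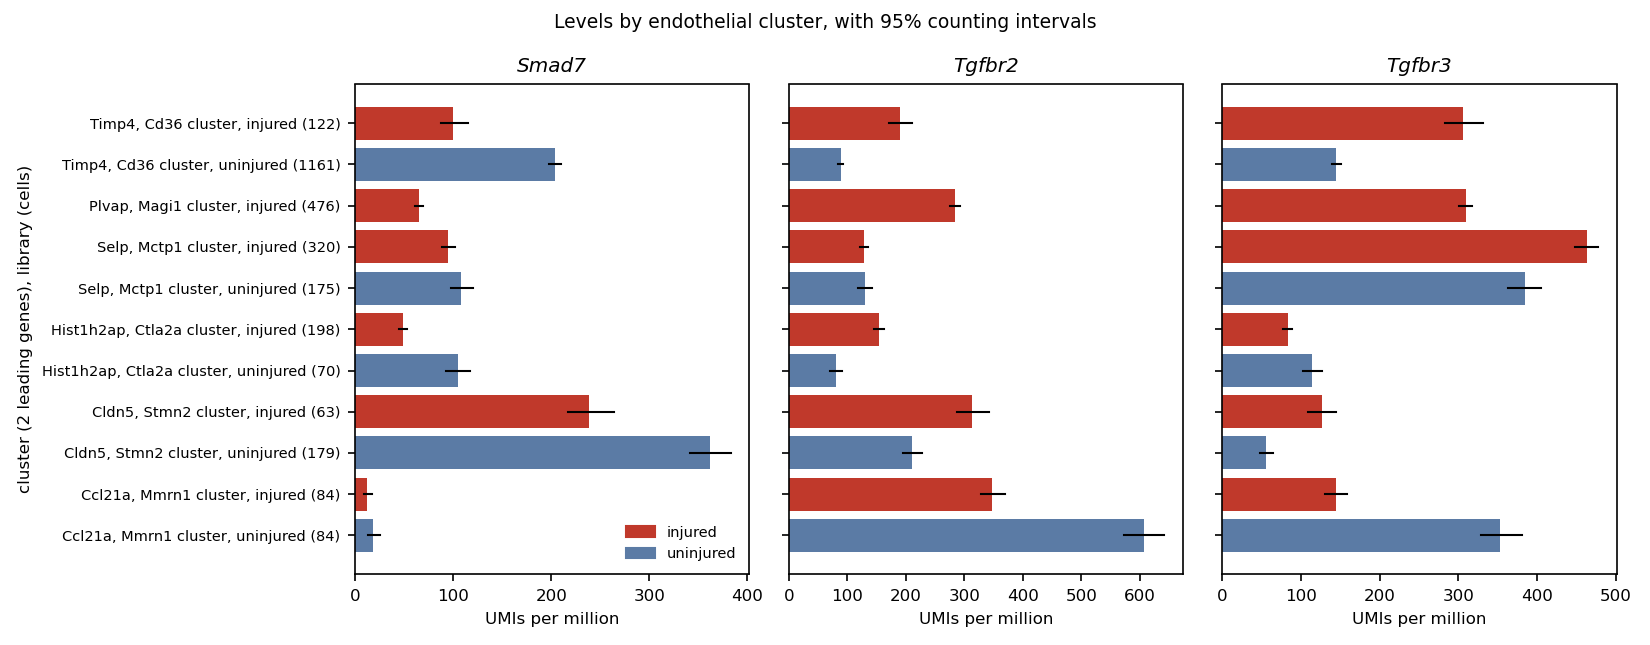
CPM of Smad7, Tgfbr2 and Tgfbr3 (horizontal axes) in each endothelial cluster with 50 or more cells in a library, coloured by library, with 95% counting intervals and cell numbers in brackets. Smad7 is lower in the injured library in all 4 vascular clusters that both libraries fill (100.2 against 204 in the Timp4 and Cd36 cluster), by least in the Selp cluster, where the intervals overlap.

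The vascular class too was filled by different clusters: 122 of 1179 injured cells but 1161 of 1628 uninjured cells were in the cluster led by Timp4 and Cd36, genes of capillaries, and 476 injured cells were in a cluster led by Plvap. Smad7 was lower in injured cells in all 4 clusters with 50 or more cells of each library. It was past 2-fold in 1 of them, the dividing cluster. In the Timp4 and Cd36 cluster it had 100.2 CPM injured and 204 CPM uninjured (log2 -0.99). In the dividing cluster it had 48.4 and 105 CPM (log2 -1.04), and in the cluster led by Cldn5, Stmn2 and Sema3g, which are arterial genes in part, 239 and 362 CPM (log2 -0.59). In the cluster led by Selp and Ackr1, genes of venules, 95 and 108 CPM gave the ratio nearest to 1 (0.876, 0.774 to 0.993, log2 -0.18). Tgfbr2 in the Timp4 and Cd36 cluster was past 2-fold, at 190.3 against 88.7 CPM (ratio 2.15, 1.92 to 2.39), whereas in the Selp cluster it was 128 against 130.1 CPM. It was also higher in the dividing cluster (154 against 80.5 CPM) and in the Cldn5 cluster (314 against 211 CPM). Summed over these 4 clusters, which the libraries filled in different proportions, the log2 ratio of Tgfbr2 was 0.57. Tgfbr3 was higher in the Timp4 and Cd36 cluster (306 against 145 CPM), the Cldn5 cluster (126 against 55.6 CPM) and the Selp cluster (463 against 384 CPM). In the dividing cluster Tgfbr3 was lower (82.8 against 114 CPM). Xist-only cells gave Smad7 at 89.9 CPM injured and 157 CPM uninjured (log2 -0.77, short of 2-fold), and Y-only cells gave 65.5 and 258 CPM (log2 -1.90).

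Markers of other cells differed between the vascular libraries, and their part was not tested. The 8 macrophage markers summed to 457 CPM in injured and 67.1 CPM in uninjured vascular cells, the 10 fibroblast markers to 597 and 228 CPM, the 7 osteoclast markers to 196 and 4.04 CPM, and the 5 erythroid markers to 307 and 3212 CPM. Of the other pathway genes, 38 were compared in vascular cells, 12 were past 2-fold higher and 2 lower, with a median log2 ratio of 0.32 against 0.03 over all genes compared. Among the higher were Tgfbi, a TGF-beta induced matrix protein (100.4 CPM injured, 6.95 CPM uninjured), Mmp14, a membrane protease (204 and 45.1 CPM), Itgav, an integrin chain that can release latent TGF-beta (99.7 and 23.5 CPM), Inhbb, the activin B subunit (28.1 and 4.2 CPM), Mmp2 (49.5 and 10.2 CPM) and Postn (49.1 and 10.3 CPM). The 2 lower were Ltbp4 (186 and 616 CPM) and Tagln (78.7 and 176 CPM). Postn, Col1a1 and Mmp2 are genes that fibroblasts express. The fibroblast, macrophage and osteoclast sums above were all higher in injured vascular cells, and their part in the pathway gene ratios was not tested.

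Lymphatic endothelial cells, in which VEGF-D acts through VEGFR3 (Flt4), formed 1 cluster with 84 cells in each library, so its ratios rest on few cells. Of the 8 members compared, 3 were past 2-fold, all lower in injured cells, against 20.9% of the 9675 genes compared (10.6% higher, 10.3% lower). Tgfb2 had 9.30 CPM in injured cells (6.27 to 13.3, 30 UMIs) and 68.1 CPM in uninjured cells (57.1 to 80.7, 134 UMIs), a ratio of 0.136 (0.0886 to 0.204). Tgfb3 had 15.5 CPM (11.5 to 20.4, 50 UMIs) and 76.8 CPM (65.0 to 90.1, 151 UMIs), a ratio of 0.202 (0.144 to 0.280). Tgfbr3 had 144 and 353 CPM (0.407, 0.361 to 0.458). The 5 cells with the most UMIs held 56.7% of injured and 37.3% of uninjured Tgfb2 UMIs, and 44.0% and 37.1% of Tgfb3 UMIs. Tgfbr2 was also lower, at 348 against 607 CPM (0.574, 0.528 to 0.623), while Tgfb1 was 1.36-fold higher at 300.4 against 221 CPM (1.21 to 1.53). Inhba had 0 UMIs in both libraries.

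Thinned shares of lymphatic cells with a Tgfb3 UMI were 1.23% (0.0313 to 6.69, 1 of 81 cells) injured and 18.8% (10.9 to 29.0, 15 of 80 cells) uninjured, and for Tgfb2 1.23% and 10.0% (4.42 to 18.8). In phagocytes, where both genes lay near 0, the thinned shares were 0.901% of injured and 1.02% of uninjured cells for Tgfb3, and 0.313% of injured and 0 of 393 uninjured cells for Tgfb2. Thinning left out 3 injured and 4 uninjured lymphatic cells. Unthinned, 28.6% of injured and 65.5% of uninjured lymphatic cells had a Tgfb3 UMI at median depths of 31875 and 17271 UMIs. The count of 3 was 2 where levels were averaged over cells. Lymphatic markers were lower in part, Ccl21a at 2069 against 8443 CPM and Prox1 at 515 against 959 CPM, and Lyve1 was at 1213 against 951 CPM. The 10 fibroblast markers summed to 1290.3 CPM in injured and 171 CPM in uninjured lymphatic cells, the 8 macrophage markers to 312 and 116 CPM, and the 5 erythroid markers to 2057 and 79.8 CPM. Their part was not tested.

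In mononuclear phagocytes, here macrophages, monocytes and osteoclast-gene cells, 0 of the 6 members compared were past 2-fold, against 7.41% of the 8627 genes compared (3.15% higher, 4.25% lower). Tgfb1 had 309 and 364 CPM (ratio 0.849, 0.812 to 0.888), Tgfbr1 122 and 138 CPM, and Acvr2a 56.9 and 70.7 CPM. Tgfbr2 was lower at 162 against 263 CPM (0.614, 0.582 to 0.649), and Smad7 was higher at 42.0 against 21.5 CPM (1.95, 1.64 to 2.34), with a log2 ratio of 0.83. Tgfbr2 differed between clusters. In the largest, led by Apoe and Pf4, it was lower, at 150.2 CPM in 1175 injured and 203 CPM in 130 uninjured cells (0.742, 0.668 to 0.826), and so was Tgfbr1, at 156 against 244 CPM. In the cluster led by Ccl8, F13a1 and Mrc1, genes of tissue-resident macrophages, Tgfbr2 was 335 CPM in 469 injured cells and 328 CPM in 225 uninjured cells. In the monocyte cluster of 756 injured cells it was 61.9 CPM, and in 370 injured cells led by Acp5, Mmp9 and Ctsk, osteoclast genes, it was 70.7 CPM. Smad7 was highest in that osteoclast-gene cluster, at 95.2 CPM, and was 12.6 CPM injured and 12.7 CPM uninjured in the resident cluster. In the Apoe and Pf4 cluster Smad7 was 39.2 CPM injured and 33.0 CPM uninjured (1.19, 0.921 to 1.56). The osteoclast-gene cluster had only 9 uninjured cells and was shallow. Its median depth was 0.111 of the library median, against 0.948 in the resident cluster.

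Inhba in phagocytes had 255 UMIs in the injured library (6.29 CPM, 5.54 to 7.11) and 2 UMIs in the uninjured library (0.319 CPM), a ratio of 19.7 with a wide counting interval (5.41 to 164), and both levels were under 10 CPM. It came from few cells: 2.45% of injured phagocytes had an Inhba UMI and the 5 highest held 53.3% of the UMIs. Of the other pathway genes, 34 were compared, 6 were past 2-fold higher and 2 lower, with a median log2 ratio of 0.04 against -0.04 over all genes compared. Thbs1, a secreted activator of latent TGF-beta, had 747 CPM injured and 94.6 CPM uninjured (7.89-fold higher, 7.28 to 8.57), and Mmp14 had 258 and 40.9 CPM. Fn1, Postn, Itgav and Gdf15 were the other higher genes, with log2 ratios of 1.76, 1.66, 1.18 and 1.17. In phagocytes the 10 fibroblast markers summed to 599 CPM injured and 377 CPM uninjured, the 7 neutrophil markers to 192 and 75.3 CPM and the 8 dendritic markers to 4077 and 9406 CPM, and their part was not tested. The lower genes were Ltbp4 (2.69 and 15.6 CPM) and Ccn2 (3.58 and 13.2 CPM).

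In pericytes or smooth muscle cells, the mural cells of vessels, 2 of the 9 members compared were past 2-fold, against 13.3% of the 9707 genes compared (6.84% higher, 6.46% lower), and neither call held when classes were set in either of 2 other ways. Tgfb1 had 81.6 CPM injured and 32.3 CPM uninjured (2.53-fold higher, 2.07 to 3.10, log2 1.21), but its log2 ratio was -0.32 with each library clustered alone and -0.16 with classes from a per-cell marker score. Tgfb3 had 79.5 and 167 CPM (ratio 0.476, 0.428 to 0.530, log2 -1.03), and its log2 ratio was 0.11 with each library clustered alone and -0.47 with the per-cell score. Inhba had 70.7 and 127 CPM (0.557, 0.494 to 0.628, log2 -0.80), and its log2 ratio was 0.69 with each library clustered alone and 0.44 with the per-cell score. Tgfb2 had 143 and 128 CPM (log2 0.15), and was past 2-fold higher with each library clustered alone (log2 1.26). The class was filled differently: 399 injured and 81 uninjured cells were in a pericyte cluster led by Rgs5, and 48 injured and 107 uninjured cells in a smooth muscle cluster led by Myh11. The Myh11 cluster of the uninjured library had the higher Inhba (174 CPM) and Tgfb3 (236 CPM), against 76.5 and 68.4 CPM in its Rgs5 cluster. Within the Rgs5 cluster Tgfb1 was 85.5 CPM injured and 38.7 CPM uninjured (2.21, 1.63 to 3.08), Inhba 56.5 and 76.5 CPM, and Tgfb3 51.5 and 68.4 CPM. In the same cluster 2 more members were past 2-fold lower, Tgfbr3 at 96.1 against 217 CPM (0.443, 0.384 to 0.513) and Acvr2a at 27.0 against 69.3 CPM (0.390, 0.301 to 0.511). For this single cluster, too, no share over all genes is given beside the calls.

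Of the other pathway genes, 42 were compared in mural cells, with 11 past 2-fold higher and 3 lower and a median log2 ratio of -0.08 against 0.02 over all genes compared. Postn (1182 CPM injured, 205 CPM uninjured), Cd109, a TGF-beta co-receptor that lowers signalling (27.9 and 6.58 CPM), Mmp14 (327 and 104 CPM), Col1a1 (2163 and 809 CPM), Fn1 (629 and 243 CPM) and the fibrillin gene Fbn1 (337 and 134 CPM) were among the higher. Ltbp1, which covalently binds latent TGF-beta (54.5 and 245 CPM), Ltbp4 (32.4 and 112 CPM) and Tagln (4291 and 8776 CPM) were lower. Ltbp4 was thus past 2-fold lower in mesenchymal, vascular, phagocyte and mural cells. The 10 fibroblast markers summed to 8049.7 CPM in injured and 4479.6 CPM in uninjured mural cells, with 3 past 2-fold higher and 4 lower. The 8 macrophage markers summed to 208 and 28.3 CPM, the 7 neutrophil markers to 173 and 2.57 CPM and the 5 erythroid markers to 18.3 and 1009.6 CPM. The part of these markers' cells in the mural ratios, that of Tgfb1 among them, was not tested.

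The 2 other classes with 50 or more cells in each library were smaller, and their ratios were not run under alternative settings. In Schwann cells, the glia of peripheral nerve, 4 of the 8 members compared were past 2-fold, against 20.9% of the 9972 genes compared (11.6% higher, 9.33% lower). Tgfb1 had 47.0 CPM in injured and 13.9 CPM in uninjured cells, Tgfb2 43.4 and 13.9 CPM, and Smad7 42.9 and 14.5 CPM. Tgfbr3 was lower at 209 against 429.8 CPM. Each level of the first 3 rests on 21 to 91 UMIs, and the libraries filled different clusters: 70 of 100 injured cells were in a cluster led by Csmd1, and 120 of 168 uninjured cells were in another cluster. The 10 fibroblast markers summed to 5043 CPM in injured and 3195 CPM in uninjured Schwann cells and the 8 macrophage markers to 200 and 577 CPM, and their part was not tested. In dendritic cells, 2 of 6 members were past 2-fold, against 13.2% of the 8408 genes compared (6.11% higher, 7.11% lower). Acvr2a had 92.3 CPM injured and 22.6 CPM uninjured (4.09-fold higher, 3.0 to 5.68) and Smad7 93.7 and 37.9 CPM (2.47, 1.93 to 3.20), while Tgfb1 was 169.8 and 291 CPM. Ccr7 and Fscn1, markers of migratory dendritic cells, were at 276 and 191 CPM in the injured and 1.92 and 0.961 CPM in the uninjured library. The 8 macrophage markers summed to 2043 CPM in injured and 6747 CPM in uninjured dendritic cells, the 7 neutrophil markers to 197 and 2.88 CPM and the 5 erythroid markers to 743 and 155 CPM, and their part was not tested.

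Genes with the pattern most like a member's were ranked by Pearson correlation of log2(CPM + 5) over the 18 class and library pairs, among 12702 genes. Ltbp2 was most like Fbn2 (r = 0.983), a fibrillin of developing elastic fibres, followed by Pitx1, a hindlimb transcription factor gene, and Ccbe1, needed for VEGF-C processing in lymphatic growth (r = 0.980 each). In these pairs Ltbp2 was at 6.99 CPM or less outside mesenchymal cells, so its correlations rest mainly on the mesenchymal levels. Inhba was most like Crispld2 (0.959), then Shox2 (0.908) and Aspn (0.907). Tgfb3 was most like C1qtnf7 (0.946), Tgfb2 most like Rbms3 (0.933), Tgfb1 most like Ap3b1 (0.928) and Tgfbr3 most like Tcaf1 (0.953). Smad7 had the least close match, Atp2a3 at 0.691. These are likenesses of level across classes of 2 libraries and carry no test.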

How the data were processed

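Cells from digested soft tissue were run on the 10x Genomics 3′ assay with the v2 reagent kit, per the labels' protocols. The matrices the authors deposited hold raw UMI counts of each gene in each barcode, made with Cell Ranger 5.0.1 on mm10, per the file headers and the submitters' processing notes. The sources used here do not give the annotation release or how cells were called.

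Barcodes needed 500 detected genes and no more than 10% mitochondrial UMIs, which left 9366 injured and 4760 uninjured cells. Scrublet (scanpy 1.11.5) marked 1 and 3 cells by its automatic threshold, so 202 injured cells (2.16%) and 58 uninjured cells (1.22%) with a score above 0.2 were removed; that score threshold was chosen with the data in view. For clustering, counts were brought to 10000 UMIs a cell and logged. Both libraries were clustered together with 2000 variable genes, without the members and the pathway list, 30 components, 15 neighbours and Leiden at resolution 0.8 (igraph 0.11.9, scikit-learn 1.9.0). Clusters were named by the best of 22 marker lists with at least 3 markers detected. A cluster got no name if some other class's list (at least 5 markers detected) came to 0.75 of its best score, if it was shallow with no marker among its 10 top genes, or if those held more markers of another class. These naming rules, and a rule that the erythroid list needs 10% haemoglobin UMIs, were set after the data were examined. Rebuilt names may differ from the study's.

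UMIs were summed per library and class (python 3.11.15, numpy 2.4.6, scipy 1.17.1). Intervals are exact Poisson for levels, exact Clopper-Pearson for shares and conditional exact for ratios, and a count of 0 allows 3 counts. Shares were taken after thinning cells to 2000 UMIs. Free RNA in droplets was not removed. Sums and ratios were checked on simulated data. Alternatives changed the pseudocount, scaling, filters, doublet handling, clustering, thinning and the cells used. The median log2 ratio over genes with 50 or more UMIs in each library lay between -0.13 (mesenchymal) and 0.05 (Schwann). The 10 members are all named. Of 49 pathway genes, those past 2-fold at 10 CPM are counted and up to 6 highest and 6 lowest per class may be named, and 3 genes per member are ranked by likeness. Members and lists were chosen with earlier results of these data known.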

Additional observations from a re-analysis of the deposited data

Results flagged for a closer look

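Tgfb2 and Smad7 were past 2-fold in opposite directions in different cell classes. The Tgfb2 log2 ratio, injured over uninjured, was 1.36 in Schwann cells and -2.35 in lymphatic endothelial cells. The Smad7 log2 ratio was 1.29 in Schwann cells, 1.2 in dendritic cells and -1.33 in vascular endothelial cells. With 1 library per group these differences between classes were not tested, and the Schwann cell ratios rest on 21 to 84 UMIs per library and gene. The Schwann and dendritic ratios were not run under alternative settings.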

How the results depend on the processing

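No paired analysis was possible because there is 1 library per group and the labels give no replicate numbers; for the same reason no replicate could be left out. Counts of members past 2-fold that moved by more than 1.5 times were as follows. Over all cells the count of 1 was 0 with a filter of 50 CPM, 0 with levels averaged over cells, 0 in Xist-only cells and 2 in Y-only cells. In mesenchymal cells the count of 0 was 1 with a pseudocount of 1 CPM, median-of-ratios scaling, levels averaged over cells, a mitochondrial limit of 20%, doublets kept, doublets removed at 0.8% per 1000 barcodes, each library clustered alone or classes from a per-cell score, and 3 in Y-only cells and in the shared cluster. The mesenchymal Ltbp2 log2 ratio ranged from -2.02 in the shared cluster to 1.33 in Y-only cells. In vascular cells the count of 1 was 3 with levels averaged over cells, 2 with doublets kept and 0 in Xist-only cells. Smad7 stayed past 2-fold lower there in 14 of 15 alternatives, from -1.90 to -0.77, but cluster by cluster in 1 of the 4 shared clusters (-0.99, -0.18, -1.04 and -0.59); the sum over these 4, -1.2, is counted among the 14 and still mixes them in different proportions. In phagocytes the count of 0 was 1 without the filter on low levels and 2 in Y-only cells. In pericytes or smooth muscle cells the count of 2 was 1 in Y-only cells, 1 with each library clustered alone and 0 with the per-cell score. Tgfb1 there reversed to -0.32 (each library clustered alone) and -0.16 (per-cell score), and Tgfb3 to 0.11 (each library clustered alone). Inhba there, at -0.80 and not past 2-fold, turned to 0.69 and 0.44 under the same settings, and Tgfb2, at 0.15, came to 1.26 with each library clustered alone. The 5 members with a higher thinned share in injured mesenchymal cells were 9 without thinning, at median depths of 44881 UMIs injured and 19818.5 UMIs uninjured. No share over all genes is given beside these counts, so they are not read as a result about the members. Of 20 member and library pairs, 7 were highest in mesenchymal cells, against 11 in Xist-only cells and 4 in Y-only cells; classes under 50 cells drop out of these splits, so the set of classes differs too. The cause of each move was not tested. The settings for lymphatic cells were added after seeing the data; their count of 3 was 2 or 3 in all 13 (splits by sex-linked UMIs were not run there). The lymphatic values rest on 84 cells per library. Schwann and dendritic cells were not run under any of these settings, so how far their calls depend on the processing is not known.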

Other observations

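A cluster of 80 injured and 81 uninjured cells led by Apod, Gpc3 and Sfrp5 stayed unnamed, since its 10 top genes included the fibroblast marker Dcn and no marker of its best list, mesothelial or perineurial. Its Inhba level was 216 CPM in injured cells (320 UMIs), the highest of the injured clusters with 50 or more cells, and 69.8 CPM in uninjured cells (62 UMIs), where other clusters were higher, a ratio of 3.10 (2.35 to 4.14). Tgfb2 had 62.9 and 11.3 CPM there (5.58, 2.90 to 12.0), Tgfbr1 167 and 75.4 CPM (2.21, 1.68 to 2.95) and Tgfb1 42.6 and 15.8 CPM (2.70, 1.5 to 5.22). Ltbp2 had 19 UMIs in injured and 0 in uninjured cells. A cluster with 63 injured cells led by Siglech and Irf8, genes of plasmacytoid dendritic cells, also stayed unnamed and in the injured library had Tgfb1 at 284 CPM and Smad7 at 166 CPM.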
